A study of Mus musculus with 20 samples.

Results

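The genes described are 9 that encode contents of the secondary (specific) and tertiary (gelatinase) granules of mouse neutrophils, Ltf, Camp, Ngp, Lcn2, Fcnb, Chil3, Mmp8, Mmp9 and Retnlg. They were chosen by name, for what their products are, out of 24421 genes listed in each count file. The choice was made with earlier results of these data known. All 9 passed the filter on low counts, with 14030 genes tested in all. Neutrophils were taken from bone marrow by magnetic negative selection, and poly(A) RNA of 20 libraries was sequenced, 5 for each combination of genotype and treatment. WT mice were bought as C57BL/6J, and the KO mice were bred in house and carried floxed Bmal1 alleles with LysMCre, a Cre inserted at the Lyz2 locus that acts in myeloid cells beyond neutrophils as well. All mice were female. Treated mice received imiquimod (IMQ) cream, a TLR7 agonist that brings on lupus-like disease, on the ears 3 times per week for 6 weeks, starting at an age of 8 to 10 weeks, and the labels give no age for the untreated mice.

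Neutrophils fill their granules in order as they mature in the marrow, primary granules in promyelocytes, secondary granules in myelocytes and metamyelocytes, and tertiary granules in band cells. The mRNA of a granule protein is therefore made during one stretch of maturation, and the factor C/EBPε is known to drive the secondary set. In bulk RNA a smaller share of cells at a stage and less RNA of the gene in each cell cannot be told apart.

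CPM gives a gene's reads for every 1000000 reads counted on genes, scaled here by TMM, a factor that lines up most genes between libraries. Reads on genes numbered 30782166 to 92613500 per library, and the 9 genes took 7.13% to 10.05% of them. Arntl, the symbol of Bmal1 in the files, lay at 1.35 ± 0.322 CPM (SD, n = 5) in untreated WT and 0.721 ± 0.240 CPM in untreated KO, and at 1.11 ± 0.474 and 0.702 ± 0.477 CPM with IMQ, with overlap of the genotypes in both cases. Whether the reads counted on Arntl lie in the deleted part is not known from the files. The IMQ-treated library labelled KO 1 had 1.52 CPM of Arntl, above 4 of the 5 treated WT libraries (0.562 to 1.07 CPM, the other at 1.87), and the other 4 treated KO libraries had 0.337 to 0.71 CPM. Arntl thus went against the label of that library, while its Lyz2, 85.7 CPM, lay among the KO values. Lyz2, which holds the Cre, separated every KO library (58.8 to 177 CPM) from every WT library (2465 to 12033 CPM). KO and WT are used below as labelled. The 6 neutrophil markers present summed to 30977 to 76233 CPM, against 638 to 2244 CPM for 6 monocyte markers, 17.2 to 192 CPM for 5 eosinophil markers and at most 24.1 CPM for 6 B-lineage markers. Macrophage markers summed to 31.0 to 88.4 CPM, progenitor markers to 14.7 to 42.0, T and NK markers to 2.04 to 19.1 and basophil and mast cell markers to 1.74 to 10.8. Of 6 erythroid markers, which summed to 7.98 to 178 CPM, Hba-a1 and Hbb-bs were listed at 0 in every library. Ly6g was not analysed here.

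A set of 3 libraries stood apart from the others. Reads not uniquely aligned made up 6.34% of the reads in IMQ-treated WT library 3, 6.50% in the IMQ-treated library labelled KO 1 and 5.75% in IMQ-treated KO library 5, and 4.37% to 5.12% in the other 17. In these 3 the neutrophil markers summed to 30977 to 51522 CPM, and in the other 7 IMQ-treated libraries to 64998 to 76233 CPM. S100a8 and S100a9 made up most of that sum. The list also holds Mmp8, one of the genes described, and Csf3r, Cxcr2 and Mpo, which come back in lists below, so the sum is not independent of their values. Values without the 3 libraries are given beside the results that lean on them most.

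The promoters of 5 of the genes are printed because the data bear on them, Mmp8 and Retnlg moving together over the mice, Fcnb moving the other way, and Camp and Ngp forming another such pair. The sequences are the 250 bases before the RefSeq start of each gene in GRCm38.p6, and the table used held 8 of the 9 genes, all but Mmp9. Capitals mark TTNNGNAA, searched on both strands without regard to overlap with other motifs, a short form of the C/EBP recognition sequence. The windows are chr2:28084879-28085128 on the minus strand for Fcnb, chr9:110419558-110419807 on the plus strand for Ngp, chr9:109849457-109849706 on the minus strand for Camp, chr9:7558179-7558428 on the plus strand for Mmp8 and chr16:48872358-48872607 on the plus strand for Retnlg.
Fcnb: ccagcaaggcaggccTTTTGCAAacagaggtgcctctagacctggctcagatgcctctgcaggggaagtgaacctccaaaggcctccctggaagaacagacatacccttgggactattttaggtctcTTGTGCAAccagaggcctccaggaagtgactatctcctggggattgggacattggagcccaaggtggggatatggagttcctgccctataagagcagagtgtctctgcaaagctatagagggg
Ngp: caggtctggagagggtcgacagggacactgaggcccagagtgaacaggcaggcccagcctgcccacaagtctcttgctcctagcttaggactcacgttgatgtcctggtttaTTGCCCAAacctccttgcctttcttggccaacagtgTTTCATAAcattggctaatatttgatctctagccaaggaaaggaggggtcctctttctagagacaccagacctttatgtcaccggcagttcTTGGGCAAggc
Camp: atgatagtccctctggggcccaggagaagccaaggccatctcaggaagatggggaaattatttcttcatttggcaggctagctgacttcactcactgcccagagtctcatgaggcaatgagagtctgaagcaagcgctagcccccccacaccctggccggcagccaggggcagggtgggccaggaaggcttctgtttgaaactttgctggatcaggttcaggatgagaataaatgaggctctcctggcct
Mmp8: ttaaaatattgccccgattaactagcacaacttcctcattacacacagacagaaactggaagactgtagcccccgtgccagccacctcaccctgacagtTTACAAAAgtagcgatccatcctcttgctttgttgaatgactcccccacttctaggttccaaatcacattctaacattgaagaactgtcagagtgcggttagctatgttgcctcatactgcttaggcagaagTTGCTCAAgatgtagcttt
Retnlg: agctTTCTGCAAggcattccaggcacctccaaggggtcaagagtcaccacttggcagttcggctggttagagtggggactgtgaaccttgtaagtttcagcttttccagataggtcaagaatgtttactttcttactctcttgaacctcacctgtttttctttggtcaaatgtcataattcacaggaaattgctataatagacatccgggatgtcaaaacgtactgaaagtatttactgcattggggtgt
These letters occurred in 7 of the 8 members' windows, and in 36.8% of 32544 promoters of the same length. Ngp held 3 matches, 138, 102 and 11 bases before the start, and Chil3 also held 3. Fcnb held 2, 235 and 123 bases before the start. Mmp8 held 2, the nearer 19 bases before the start, and Ltf 2. Retnlg held 1, 246 bases before the start, and Lcn2 1. Camp held none. A match is a description of the letters, not of binding.

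The genes lie on 4 chromosomes in mm10, by symbol in the GENCODE vM21 annotation. Ltf (chr9:111019271-111042767), Camp (chr9:109847379-109849617), Ngp (chr9:110419747-110423012) and Mmp8 (chr9:7558456-7568485) are on chromosome 9, and Lcn2 (chr2:32384633-32388252), Fcnb (chr2:28076378-28084885) and Mmp9 (chr2:164940780-164955850) are on chromosome 2. Chil3 (chr3:106147554-106167564) is on chromosome 3 and Retnlg (chr16:48872621-48874496) on chromosome 16. No other gene of that annotation overlaps any of them. Chil3 and Retnlg belong to families with similar copies, and Chil4 and Retn, which could share reads with them, reached at most 4.39 and 4.70 CPM.

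Levels between genes were compared per kilobase of exon. Ngp, which encodes a cathelicidin-family granule protein, was the highest in all 4 groups, with 23635 CPM per kb in untreated WT (21268 to 26765 over the mice), 21681 in untreated KO, 24017 in IMQ-treated WT and 23446 in IMQ-treated KO. Retnlg, a resistin-like secreted protein, came next in 3 groups, with 11988 CPM per kb in untreated WT (10135 to 14655). Camp, the precursor of the antimicrobial peptide CRAMP, followed with 7871 CPM per kb in untreated WT (7205 to 8697) and Ltf, the iron-binding lactoferrin, with 6543 (6037 to 6935). The ranges of Camp and Ltf did not overlap in untreated WT but did in the other 3 groups. In IMQ-treated KO the mean of Retnlg, 7279 CPM per kb, lay below that of Camp, 7483, with ranges that overlapped widely.

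Lcn2, which binds bacterial siderophores, had 3991 CPM per kb in untreated WT (3768 to 4374). It lay above the next 3 genes there, whose ranges overlapped among themselves. These were Chil3, a chitinase-like protein, with 2693, Mmp9, gelatinase B of the tertiary granules, with 2639.6, and Mmp8, the neutrophil collagenase, with 2196. Fcnb, a ficolin of the lectin complement pathway, was the lowest in every group, with 144 CPM per kb in untreated WT (97.8 to 194) and 219 in IMQ-treated KO (159 to 286). Of the 9 genes, all but Retnlg, Camp, Chil3 and Mmp9 held the same place by mean in the 4 groups.

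None of the 9 genes passed the test (edgeR's quasi-likelihood test, adjusted over all genes tested at 0.05) in any comparison. The share of all genes that passed was 3.95% for IMQ against untreated in WT (2.34% higher and 1.6% lower), 23.5% for IMQ against untreated in KO (14.4% higher and 9.04% lower), 0.207% for KO against WT without treatment, 0.292% for KO against WT under IMQ and 0% for the interaction of genotype and treatment. At an unadjusted p under 0.05, 4 of the 9 were past the threshold for IMQ in KO, against 39.3% of all genes, and 2 for KO against WT under IMQ, against 19.9%. No member was past it in the other 3 comparisons, where 22.3% (IMQ in WT), 2.19% (genotype, untreated) and 5.14% (interaction) of all genes were. The comparisons share groups with each other, so their results are not independent. The median log2 fold change of the 9 was −0.12 for IMQ in WT and 0.06 for IMQ in KO, beside 0.03 and 0.02 for all genes tested. It was −0.07 for genotype without treatment, −0.09 under IMQ and 0.00 for the interaction, beside 0.00, 0.03 and 0.01.

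**Figure D1:**
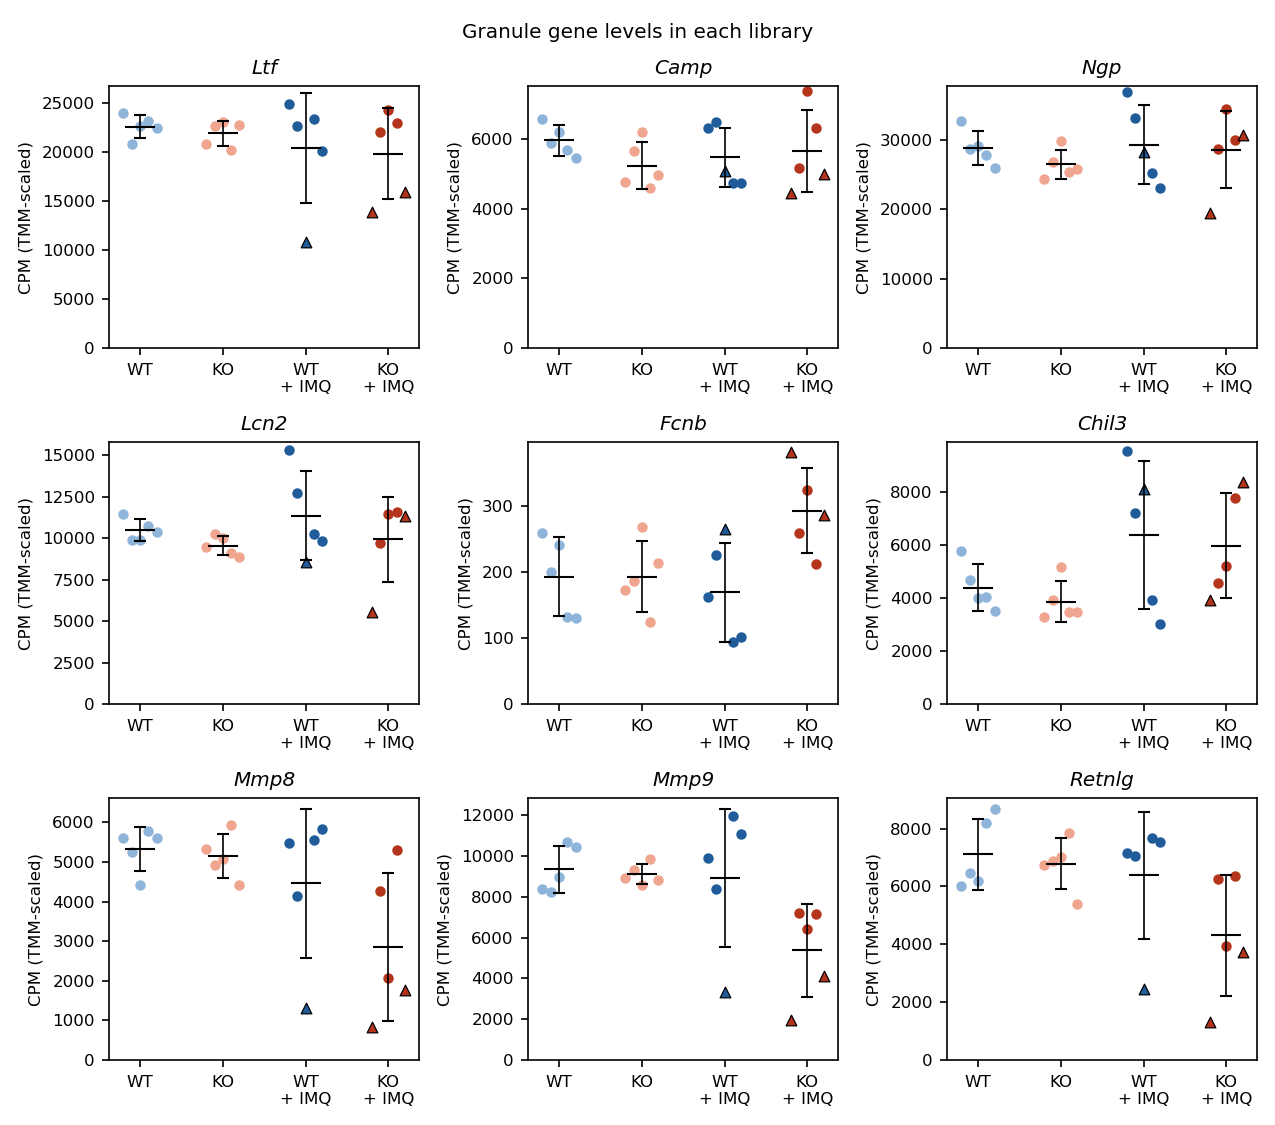
Level of each of the 9 genes in CPM (vertical axis, from 0) in each library, by group (horizontal axis). Points are libraries, triangles the 3 libraries with over 5.5% of reads not uniquely aligned, and the horizontal mark and bar the mean and SD of 5. The triangles are the lowest points of their groups for Mmp9, where IMQ-treated WT library 3 is at 3343 CPM and the IMQ-treated library labelled KO 1 at 1980.3 CPM.

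Ltf, Camp, Ngp and Lcn2 are secondary granule genes whose estimates lay close to 0 in every comparison between groups. Ltf had 23925, 20828, 22577, 23110.1 and 22435 CPM in untreated WT mice 1 to 5 and 20814, 22594, 23014, 20216 and 22751 CPM in untreated KO. Under IMQ it had 24827, 22641, 10853, 23379 and 20127 CPM in WT and 13858, 21968, 24302, 22950.5 and 15866 CPM in KO. The 3 low values under IMQ are those of the 3 libraries that stood apart, and the other 7 lay between 20127 and 24827 CPM, close to the range of the untreated mice, 20216 to 23925 CPM. This depended on the scaling. By library totals without TMM the library labelled KO 1 had 19102 CPM, above IMQ-treated WT library 5 at 18770 CPM. The lowest by totals were WT library 3 at 12544.5 CPM and KO library 5 at 17283 CPM. The log2 fold change of Ltf with IMQ was −0.15 in WT (SE 0.205, 95% interval −0.58 to 0.28) and −0.14 in KO (SE 0.205, −0.57 to 0.28). Without the 3 libraries it was 0.08 in KO.

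Camp ranged from 5461 to 6592 CPM in untreated WT, 4592 to 6205 in untreated KO, 4744 to 6487 in IMQ-treated WT and 4469 to 7386 in IMQ-treated KO. All 4 ranges overlapped. In the 4 comparisons between groups its log2 fold change lay between −0.19, for KO against WT without treatment (95% interval −0.50 to 0.13), and 0.11, for IMQ in KO (−0.21 to 0.43). Ngp ranged from 24449.6 to 32707 CPM in the untreated mice and from 19425, in the library labelled KO 1, to 36945 CPM under IMQ. By library totals without TMM that library had 26775 CPM. The lowest treated values were then 21537 and 21640 CPM, in WT libraries 5 and 4. The log2 fold change of Ngp with IMQ was 0.02 in WT (−0.35 to 0.39) and 0.11 in KO (−0.26 to 0.48). Lcn2, which responds to inflammation in many tissues, ranged from 8867 to 11473 CPM without treatment. Under IMQ its lowest value was 5525 CPM in the library labelled KO 1 and its highest 15297 CPM in WT library 1. Its log2 fold change with IMQ was 0.12 in WT (−0.28 to 0.51) and 0.06 in KO (−0.34 to 0.45).

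Chil3 and Fcnb were the members with positive estimates in IMQ-treated KO above 0.5. Chil3 had 5787, 4681, 3988, 4025 and 3496 CPM in untreated WT and 3269.8, 3946, 5178, 3467 and 3492 CPM in untreated KO. With IMQ it had 9571, 7218, 8115, 3912 and 3024 CPM in WT and 3916, 4582, 5227, 7775 and 8384 CPM in KO. In WT 3 of the 5 treated mice were above every untreated one, in KO 3 of 5 were, and the groups overlapped. The log2 fold change was 0.53 in WT (SE 0.282, 95% interval −0.05 to 1.12, adjusted p = 0.278) and 0.63 in KO (SE 0.282, 0.04 to 1.22, adjusted p = 0.107). The estimate of the interaction, 0.09, had an interval of −0.74 to 0.92.

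Fcnb is made early among the 9 in textbook accounts of neutrophil maturation. It had 259.6, 201, 241, 132 and 131 CPM in untreated WT and 173, 186, 269, 124 and 214 CPM in untreated KO. Under IMQ it had 162, 226, 265, 94.7 and 102 CPM in WT and 383, 259.6, 324, 213 and 286 CPM in KO. The highest of all 20 values, 383, 324 and 286 CPM, are in IMQ-treated KO, and the values of that group overlapped with those of every other group. The log2 fold change was 0.60 for IMQ in KO (SE 0.281, 95% interval 0.01 to 1.19, adjusted p = 0.119) and −0.18 in WT (SE 0.280, −0.77 to 0.40). Under IMQ, KO against WT gave 0.79 (SE 0.282, 0.20 to 1.38, adjusted p = 0.206), and without treatment 0.00 (−0.58 to 0.59). The interaction was 0.79 (SE 0.397, −0.04 to 1.62, adjusted p = 0.640). Without the 3 libraries that stood apart, Fcnb was at 0.46 for IMQ in KO (adjusted p = 0.32). For KO against WT under IMQ it was then at 0.88 (adjusted p = 0.148). The labels state no pairing of mice, and treated and untreated KO libraries of the same number were only weakly alike (r of 0.128 to 0.426). With the replicate number as a block Fcnb passed for IMQ in KO, at 0.62 (adjusted p = 0.0313), as did 22.2% of all genes. Fitted to the KO groups alone with that block, it was 0.63 (adjusted p = 0.0232), with 23.6% of genes called.

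Mmp8, Mmp9 and Retnlg, expressed late in granule formation, had the lowest estimates of the 9 for IMQ in KO, none of which passed the test. Mmp9 had 8388, 8243, 8952, 10667 and 10458 CPM in untreated WT and 8931, 9311, 8578, 9866 and 8843 CPM in untreated KO. With IMQ it had 9877, 8369, 3343, 11950.2 and 11078 CPM in WT and 1980.3, 7208, 6400.0, 7171 and 4119.6 CPM in KO. All 5 treated KO mice were below all 5 untreated KO mice. Mmp9 was the only member whose groups did not overlap in that comparison, as was the case for 20.1% of all genes. No member's groups were without overlap in the other comparisons, where 6.43% (IMQ in WT), 1.52% (genotype, untreated) and 1.07% (genotype, IMQ) of genes had none. The log2 fold change of Mmp9 was −0.76 for IMQ in KO (SE 0.308, 95% interval −1.40 to −0.12, adjusted p = 0.0766) and −0.07 in WT (SE 0.306, −0.71 to 0.57). Between genotypes it was −0.73 under IMQ (SE 0.308, −1.38 to −0.09, adjusted p = 0.233) and −0.04 without treatment. The interaction was −0.69 (−1.60 to 0.21, adjusted p = 0.640).

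Mmp8 had 5604, 5240.0, 4411, 5776 and 5595 CPM in untreated WT and 5318, 4931, 5079, 5944 and 4429.6 CPM in untreated KO. Under IMQ the values were 5471, 4141, 1313, 5547 and 5841 CPM in WT and 846, 4273, 2061, 5309 and 1778 CPM in KO. In WT library 3 alone was far below the untreated mice, and in KO the libraries labelled 1, 3 and 5 were, while KO library 4 was within their range. The log2 fold change was −0.85 for IMQ in KO (SE 0.389, 95% interval −1.66 to −0.04, adjusted p = 0.112) and −0.26 in WT (SE 0.386, −1.06 to 0.55). Between the treated genotypes it was −0.65 (−1.46 to 0.17, adjusted p = 0.311). Without the 3 libraries that stood apart, Mmp8 was at −0.40 for IMQ in KO (adjusted p = 0.212).

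Retnlg had 6010.2, 6454, 6201, 8187 and 8690.4 CPM in untreated WT and 6747, 6883, 7022, 7856 and 5410.5 CPM in untreated KO. Under IMQ the values were 7162, 7045, 2458, 7690.0 and 7548 CPM in WT and 1298, 6243, 3931, 6374 and 3737 CPM in KO. The 4 lowest values over both treated groups come from the libraries that were also the 4 lowest for Mmp8. The log2 fold change was −0.65 for IMQ in KO (SE 0.331, 95% interval −1.34 to 0.04, adjusted p = 0.148) and −0.16 in WT (SE 0.329, −0.84 to 0.53). The treated KO and WT mice differed by −0.56 (−1.25 to 0.13, adjusted p = 0.303). Without the 3 libraries, Retnlg was at −0.29 for IMQ in KO (adjusted p = 0.224).

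**Figure D2:**
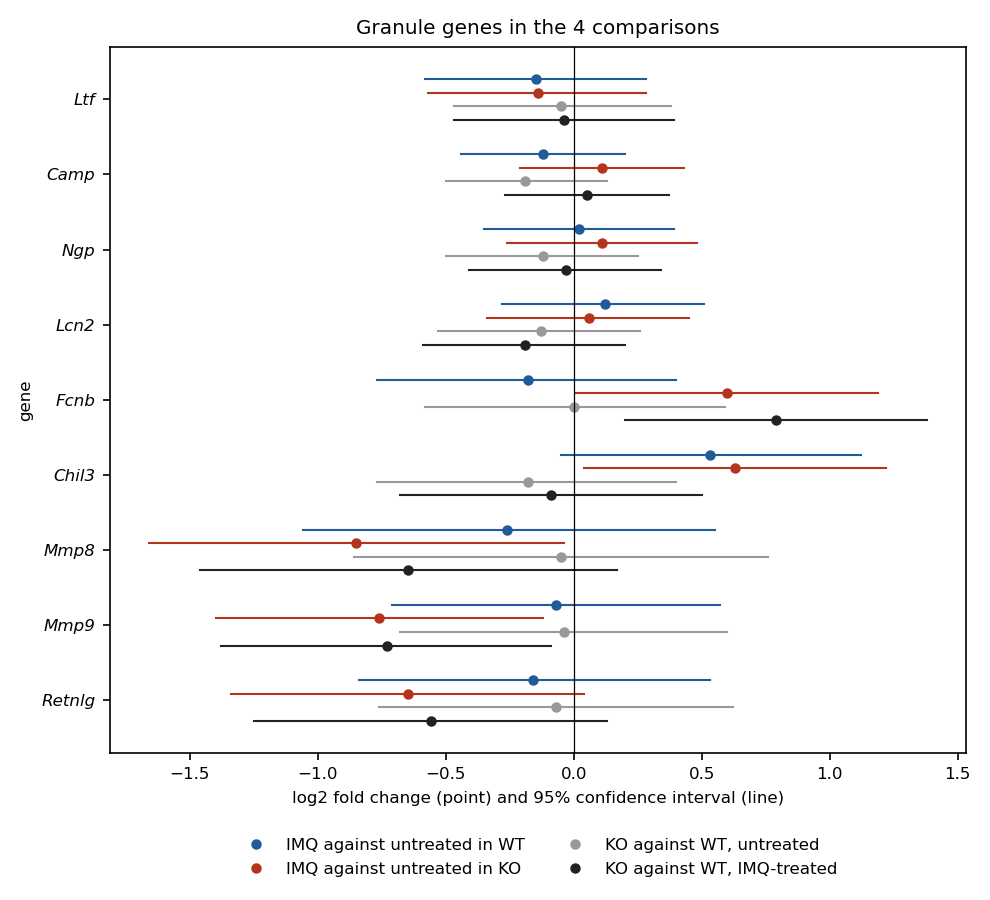
Log2 fold change (horizontal axis) with its 95% confidence interval for each gene (vertical axis) in the 4 comparisons between groups, from the model of all 20 libraries. The intervals of Ltf, Camp, Ngp and Lcn2 include 0 in all 4, and those of Fcnb, Chil3, Mmp8 and Mmp9 lie to one side of 0 for IMQ in KO, without passing the adjusted threshold.

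Whether Mmp9 and Fcnb passed turned on single libraries. Without IMQ-treated WT library 3, Fcnb was at 1.02 (adjusted p = 0.0230) and Mmp9 at −0.93 (adjusted p = 0.0242) for KO against WT under IMQ, and 21.9% of all genes passed in place of 0.292%. In the same fit Mmp9 was at −0.75 for IMQ in KO (adjusted p = 0.0287), with 31.5% of genes called. Without the treated library labelled KO 1, whose Arntl went against its label, no member passed. For IMQ in KO Fcnb was then at 0.50 (adjusted p = 0.235), Mmp9 at −0.54 (adjusted p = 0.151), Mmp8 at −0.60 (adjusted p = 0.225) and Retnlg at −0.41 (adjusted p = 0.281), with 15.4% of genes called. For KO against WT under IMQ Fcnb was at 0.69 (adjusted p = 0.579) and Mmp9 at −0.51 (adjusted p = 0.626), with 0.190% called. Without IMQ-treated KO library 4, Mmp8 was at −1.18 for IMQ in KO (adjusted p = 0.0323), with 26.6% called. Leaving out the pair with over 6% of reads not uniquely aligned, chosen after seeing the data, gave Mmp9 at −0.53 (adjusted p = 0.0116) and Chil3 at 0.77 (adjusted p = 0.0450) for IMQ in KO, with 28.8% called, and Mmp9 at −0.70 (adjusted p = 0.0185) for KO against WT under IMQ, with 8.89% called. Without all 3, Mmp9 was at −0.39 for IMQ in KO (adjusted p = 0.0331), with 14.1% called, and at −0.56 for KO against WT under IMQ (adjusted p = 0.0557). Mmp9 also passed for IMQ in KO with library totals in place of TMM (22.7% of genes called), with DESeq2 (31.1%) and with limma on log2(CPM + 0.1) (18.6%). The estimate of Mmp9 for IMQ in KO was negative in all of these.

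Markers of other cells moved in the same comparisons. Of all genes, 14.4% were called higher for IMQ in KO and 0.185% for KO against WT under IMQ. For IMQ in KO, 3 of 6 monocyte markers rose, Ccr2 by 2.30, Ms4a6c by 1.92 and F13a1 by 2.12 on the log2 scale, and the list summed to 638 to 2244 CPM in treated and 760 to 963 CPM in untreated KO mice. The sum of 2244 was that of the treated library labelled KO 1, and the other 4 had 638 to 1212 CPM. Without that library Ccr2 rose by 1.06 (adjusted p = 0.0458), and Ms4a6c at 0.94 (adjusted p = 0.0645) and F13a1 at 1.11 (adjusted p = 0.109) did not pass. Csf1r, the receptor that defines the lineage, was at −1.03 for IMQ in KO and did not pass (adjusted p = 0.167). For KO against WT under IMQ, 3 of 5 eosinophil markers were higher, Prg3 by 3.59, Prg2 by 2.54 and Epx by 2.97, and the list summed to 35.0 to 192 CPM in KO and 17.2 to 34.3 CPM in WT. With IMQ in WT Prg2 fell by 1.74 (adjusted p = 0.0488) and Prg3 by 2.59 (adjusted p = 0.0335), while none of these 3 passed for IMQ in KO. Siglecf, of the same list, was not higher in treated KO, with a mean of 9.34 CPM against 9.67 CPM in treated WT. It fell by 0.65 with IMQ in KO (adjusted p = 0.0109). Without the 3 libraries that stood apart, Prg3 at 3.31 (adjusted p = 0.0630), Prg2 at 2.28 (adjusted p = 0.0700) and Epx at 2.74 (adjusted p = 0.0770) did not pass for KO against WT under IMQ. Among the B-lineage markers Cd79a fell by 1.12 with IMQ in KO, where the list summed to 5.30 to 8.16 CPM, against 6.33 to 23.8 CPM without treatment. Their part in the values of the 9 genes was not tested.

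The spread between mice was wider under IMQ. The coefficient of variation was larger in treated than in untreated mice for 9 of 9 members in WT, as for 87.2% of all genes, and for 8 of 9 in KO, as for 86.9%. With TMM scaling Fcnb in KO was the exception, at 22.0% with and 27.7% without IMQ. By library totals it was not, with a mean and SD of 327 ± 123 CPM with IMQ and 192 ± 53.1 CPM without. The median ratio of the coefficients was 2.29 for the 9 genes in WT and 3.74 in KO, beside 1.96 and 2.09 for all genes. These ratios depended on the scaling, and their medians were not computed by library totals. With TMM, Ltf in KO was at 19789 ± 4628 CPM with IMQ and 21878 ± 1271 CPM without. By totals it was at 21032 ± 2902 and 21774 ± 1660 CPM. The ratios of Mmp8 and Retnlg in KO did not narrow in this way. Without the 3 libraries that stood apart the coefficient was larger in treated mice for 8 of 9 in WT, as for 73.1% of all genes, and for 7 of 9 in KO, as for 65.5%, and the median ratio was 1.72 in WT and 1.37 in KO, beside 1.43 and 1.33. From the lowest to the highest of the 10 treated mice, Mmp8 spanned 6.91-fold, Mmp9 6.03-fold and Retnlg 5.93-fold, and from the lowest to the highest of the 10 untreated mice 1.35-fold, 1.29-fold and 1.61-fold. By library totals the treated spans were narrower, from 1165 to 5447 CPM for Mmp8, 2730 to 10331 for Mmp9 and 1789 to 7039 for Retnlg. With TMM, over the 7 treated mice other than the 3 that stood apart, the spans were 2.83-fold, 1.87-fold and 1.96-fold. Camp spanned 1.65-fold with treatment and 1.44-fold without. The 4 lowest values of Mmp8 and of Retnlg came from the 3 libraries that stood apart and from IMQ-treated KO library 3.

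The 9 genes did not vary together as one set. Correlations over the 20 libraries were computed on log2 CPM with the group means removed, for 36 pairs, with two-sided permutation tests within groups adjusted over the pairs. Of the 36 coefficients 27 were positive, and 14 pairs had an adjusted p under 0.05 by Pearson's r and 10 by Spearman's rho. Mmp8, Mmp9 and Retnlg had the 3 highest coefficients over all 20 libraries. For Mmp9 and Retnlg r was 0.955 (permutation p = 1e-05, the smallest that 100000 resamples can give, adjusted p = 0.00036) and rho 0.904 (permutation p = 3e-05, adjusted p = 0.00054). It was 0.808 among untreated and 0.966 among treated mice, and 0.832 without the 2 libraries farthest from the median of Mmp9 and 0.651 without the 3 that stood apart. For Mmp8 and Mmp9 r was 0.934, 0.441 among untreated mice and 0.517 without the 3. For Mmp8 and Retnlg r was 0.950 (permutation p = 2e-05, adjusted p = 0.00036) and rho 0.866 (permutation p = 0.00011, adjusted p = 0.00099), and r was 0.871 without the 2 farthest libraries and 0.787 without the 3 that stood apart. Without the 3, Ngp and Chil3 (0.885), Camp and Ngp (0.882), Lcn2 and Chil3 (0.875) and Ngp and Lcn2 (0.860) had higher coefficients than any of these.

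Camp and Ngp, both of the cathelicidin family, formed another pair that held in both arms. Their r was 0.840 (permutation p = 3e-05, adjusted p = 0.00036) and rho 0.857 (permutation p = 1e-05, adjusted p = 0.00036), with 0.896 among untreated and 0.840 among treated mice, and 0.813 without the 2 farthest libraries. Ngp also followed Chil3, with r = 0.772 (permutation p = 0.0008, adjusted p = 0.0036) and rho = 0.713 (permutation p = 0.00526, adjusted p = 0.0193). Among untreated mice that r was 0.960 and among treated mice 0.741, and it was 0.735 without the 2 farthest libraries.

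Fcnb went against the late genes. For Fcnb and Retnlg r was −0.636 (permutation p = 4e-05, adjusted p = 0.00036) and rho −0.684 (permutation p = 8e-05, adjusted p = 0.00096). It was −0.785 among untreated and −0.685 among treated mice, −0.531 without the 2 farthest libraries and −0.661 without the 3 that stood apart. With Mmp9 the coefficient was −0.659 and with Mmp8 −0.635, and the sign stayed negative in both arms for these pairs too. Leaving out any single library kept Fcnb and Retnlg between −0.712 and −0.521. The 3 libraries that stood apart had high Fcnb, 265, 383 and 286 CPM, and low Retnlg, 2458, 1298 and 3737 CPM. With Camp and Ngp the r of Fcnb was 0.391 and 0.317 and did not pass the permutation test (adjusted p = 0.176 and 0.343). Among untreated mice it was 0.815 and 0.795, and among treated mice 0.194 and 0.183. By library totals over all mice it was 0.778 and 0.706 (adjusted p = 0.00391 and 0.0278).

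Ltf followed the late genes through those 3 libraries. Its r with Mmp9 was 0.884 (permutation p = 0.00688, adjusted p = 0.0225) and its rho 0.687 (permutation p = 0.0188, adjusted p = 0.0614). Among untreated mice r was −0.0633, and without the 3 libraries it was −0.184 over the other 17. The relation of Ltf with Mmp8 and Retnlg went the same way, from 0.819 and 0.797 to −0.330 and −0.345. With library totals in place of TMM none of these pairs passed the permutation test. There r was 0.699 with Mmp9 (adjusted p = 0.0929), 0.597 with Mmp8 (adjusted p = 0.146) and 0.527 with Retnlg (adjusted p = 0.154).

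**Figure D3:**
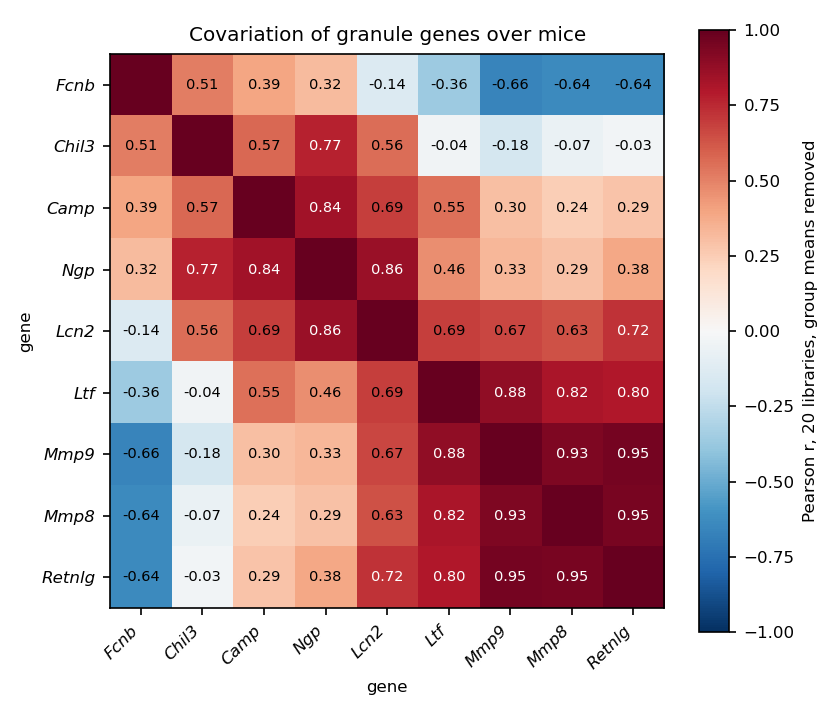
Pearson's r between each pair of the 9 genes (both axes) over 20 libraries, on log2 CPM with group means removed. Red is positive and blue negative, and the block of Mmp9, Mmp8 and Retnlg at the lower right, with r from 0.934 to 0.955 (0.517 to 0.787 without the 3 libraries that stood apart), is set against Fcnb in the top row, with r from −0.659 to −0.635.

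**Figure D4:**
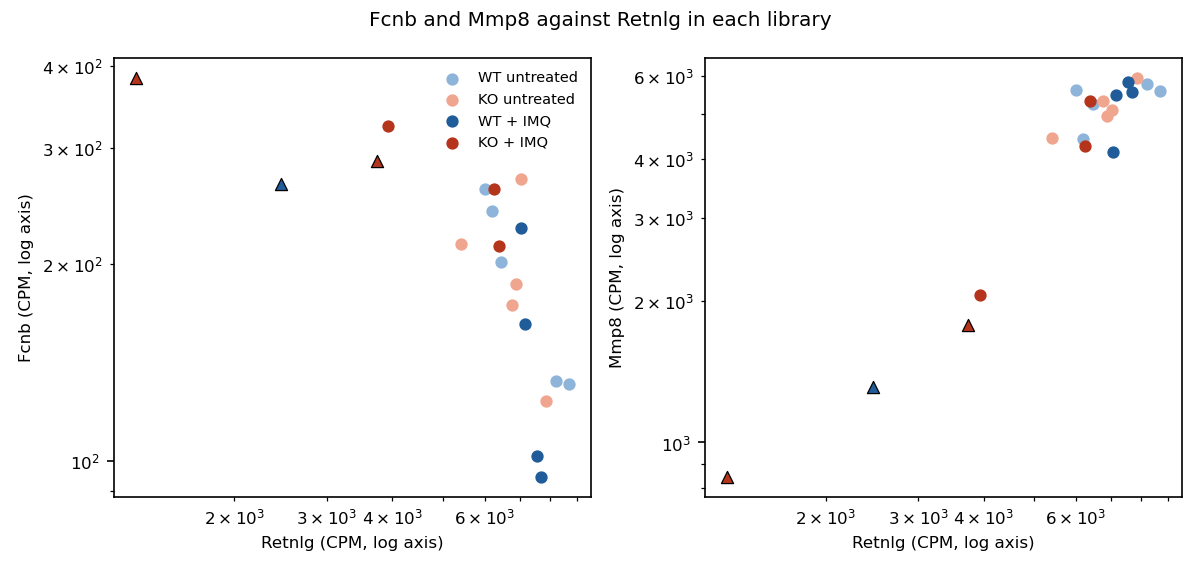
Fcnb (left) and Mmp8 (right) against Retnlg in each library, in CPM on log axes, colored by group. Triangles are the 3 libraries with over 5.5% of reads not uniquely aligned, and Fcnb falls and Mmp8 rises with Retnlg among the circles as well, with r of −0.661 and 0.787 over the other 17 libraries once group means are removed.

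The genes most like the 9 were found as a description, by the correlation of their group-centered log2 CPM with the mean standardized value of the 9, among 7012 genes of at least 10 CPM on average. Among the closest were Lmo4 (r = 0.915), Flii (0.914), Pglyrp1 (0.903), BC031181 (0.903), Zfp408 (0.897), Aldh2 (0.896), Pdlim2 (0.891), Prdx5 (0.890) and Txndc17 (0.889), over 20 libraries. Pglyrp1, a peptidoglycan-binding granule protein, had the highest level of these, at 2307 CPM. The mean of the 9, which did not vary as one set, was lowest in 2 libraries that stood apart. It was −1.92 in the IMQ-treated library labelled KO 1 and −1.08 in IMQ-treated WT library 3, and −0.486 to 1.06 in the others. These coefficients were not computed without those libraries or with library totals.

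The rest of the granule contents were taken from lists. Of 20 other secondary and tertiary granule genes, 2 rose with IMQ in WT, Lrg1 by 1.25 on the log2 scale (SE 0.210, adjusted p = 0.00702) and Qsox1 by 1.01 (SE 0.208, adjusted p = 0.0184). Lrg1, a secreted glycoprotein, and Qsox1, a sulfhydryl oxidase, rose with IMQ in KO too, by 0.67 (adjusted p = 0.0285) and 0.58 (adjusted p = 0.0474), as did Stom, a membrane protein, by 0.99 (adjusted p = 0.0150). In KO 3 fell, Olfm4 by 0.87 (adjusted p = 0.0116), Slpi, a protease inhibitor, by 0.88 (adjusted p = 0.0316) and Slc11a1, a metal transporter of the granule membrane, by 0.78 (adjusted p = 0.0351). The 6 of 20 called for IMQ in KO stand beside 23.5% of all genes, and the 2 of 20 in WT beside 3.95%. The median of the 20 was 0.08 in WT and −0.22 in KO. For IMQ in KO the count of 6 became 11 with library totals (22.7% of all genes called) and also 11 without the pair of libraries with over 6% of reads not uniquely aligned (28.8%), and for IMQ in WT the count of 2 became 5 without that pair (6.35%). Between genotypes Lyz2 alone of the 20 was called, at −6.40 without treatment and −6.36 under IMQ, and it is the site of the Cre. The median of the 20 for KO against WT under IMQ was −0.32, beside 0.03 for all genes, with 2 estimates above 0. None of the 20 was called for the interaction, where the median was −0.38.

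Of 8 primary granule genes 7 were tested. Ctsc, the protease that activates the granule serine proteases, rose with IMQ in KO by 2.43 (SE 0.446, adjusted p = 0.00473), and the other 6 did not pass. Its values were 313, 84.9, 52.1, 36.4 and 52.4 CPM in treated KO, the highest in the library labelled KO 1, and 14.9 to 31.2 CPM in untreated KO. The 1 of 7 called for IMQ in KO stands beside 23.5% of all genes. The median of the 7 was 1.04 for IMQ in KO and −0.14 in WT. For KO against WT under IMQ it was 1.11, beside 0.03 for all genes. None was called in the other 4 comparisons.

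Of 10 regulators of granule genes none was called for IMQ in WT or between genotypes, and for IMQ in KO Csf3r, the G-CSF receptor, fell by 1.38 (SE 0.401, adjusted p = 0.0223) and Irf8, a factor of the monocyte lineage, rose by 1.62 (SE 0.552, adjusted p = 0.0413). Irf8 stood at 133 and 46.1 CPM in the libraries labelled KO 1 and 2 and at 8.29 to 14.1 CPM in the other 3. Of the 10, 1 was called higher and 1 lower for IMQ in KO, beside 14.4% and 9.04% of all genes. Summed, the regulators came to 1940 to 2603 CPM in the 3 libraries that stood apart and to 3383 to 4829 CPM in the other 7 treated ones. Cebpe, which encodes C/EBPε, ranged from 351 to 438 CPM without treatment and from 334 to 597 CPM with it, and did not pass in any comparison.

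Of 10 genes of late neutrophils, Stfa2l1 rose with IMQ in WT by 1.49 (adjusted p = 0.0323) and in KO by 1.04 (adjusted p = 0.0456), and Ccl6, Il1b and Clec4d fell in KO, by 1.64 (adjusted p = 0.0198), 2.02 (adjusted p = 0.0275) and 1.70 (adjusted p = 0.0292). The 1 of 10 called in WT stands beside 3.95% of all genes. In KO 1 was called higher and 3 lower, beside 14.4% and 9.04% of all genes. The median of the 10 was −0.11 in WT and −0.70 in KO, and none was called between genotypes or for the interaction. For KO against WT under IMQ the median was −0.49, beside 0.03 for all genes, with no estimate above 0. Summed, the late genes came to 2075 to 3551 CPM in the 3 libraries that stood apart and to 5133 to 8749 CPM in the other 7 treated ones. Of 7 tested relatives of the 9 genes, Retn and Chil1 fell with IMQ in KO, by 1.93 (adjusted p = 0.0172) and 0.97 (adjusted p = 0.0196), and none was called in the other comparisons. The 2 of 7 called lower stand beside 9.04% of all genes called lower for IMQ in KO.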

How the data were processed

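The authors deposited raw counts of reads per gene for each of 20 libraries, with 24421 genes and 5 summary lines per file. The paper describes poly(A) libraries and alignment with TopHat to mm10, while the submitters' processing notes list bcl2fastq, STAR 2.7.8a and HTSeq 2.0.1. The annotation and strand setting are not given in the sources used here, nor which library was run on which sequencer. Reads on genes were 37.4% to 41.9% of those accounted for, with 51.9% to 57.8% on no feature, 0.335% to 0.431% ambiguous and 4.37% to 6.50% not uniquely aligned, and these lines stayed out of library sizes. Counting error was small beside the spread between mice, with a chi-square per degree of freedom of 18.2 to 787 over 40 pairs within groups. A merged table repeats the counts and was not used.

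Counts were fitted in R 4.3.3 with edgeR 4.0.16 (quasi-likelihood, TMM factors of 0.854 to 1.38, filter on low counts, 14030 genes) in one model of the 4 groups, with Benjamini-Hochberg adjustment over all genes at 0.05, and the fit was tested on simulated data. Correlations used log2 CPM with a prior count of 2. Exon lengths came from GENCODE vM21 and promoters from RefSeq, GRCm38.p6. The 9 genes and the lists were chosen with earlier results of these data known. All 9 are named in every comparison, and of each list up to 4 genes with the smallest p. A named list marker and one of the 10 genes most like the 9 by correlation are not reported here. For IMQ in KO, all 6 called genes of the granule list are named, chosen after their values were seen.

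Same-numbered libraries were checked for pairing by the correlation of their deviations from group means over genes. For IMQ in KO all 5 were above 0.1 (0.128 to 0.426), and for IMQ in WT 4 of 5 (0.0728 to 0.384). Between genotypes they ran from −0.441 to 0.206 without treatment and −0.497 to 0.343 under IMQ. The labels give numbers only, and libraries with different numbers were not compared in this way. Alternatives were RLE factors, library totals, the members left out of the scaling, no filter, at least 10 counts in every library, the replicate block, only the groups compared, DESeq2 1.42.0, limma 3.58.1 on log2(CPM + 0.1), in place of the RPKM of the paper's methods, each library left out in turn, and 5 added after seeing the data.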

Additional observations from a re-analysis of the deposited data

Results flagged for a closer look

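Of 36 combinations of gene and group, 1 had a library set apart from the other 4 by Dixon's criterion, while chance alone marks about 1 in 20 groups. Retnlg in IMQ-treated WT library 3 was at 2458 CPM, with the other 4 mice at 7045 to 7690.0 CPM, and the gap took 0.877 of the whole range. It is the WT library with the most reads not uniquely aligned, 6.34%, and its part in the value was not tested.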

How the results depend on the processing

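The count of members called, 0 in all 5 comparisons, moved for IMQ in KO to 1 with library totals (Mmp9), the replicate block (Fcnb), the block with only the groups compared (Fcnb), DESeq2 (Mmp9) and limma (Mmp9), to 2 without the pair of libraries with over 6% of reads not uniquely aligned, and to 1 without the 3. For KO against WT under IMQ it moved to 1 without the pair. Each library left out in turn gave 0 to 1 for IMQ in KO, 0 to 2 for KO against WT under IMQ and 0 elsewhere. The replicate block changed no other call of a member. The cause was not tested. Library totals moved the median log2 fold change of all genes to 0.16 for IMQ in KO, 0.23 for KO against WT under IMQ and 0.20 for the interaction, and gave 11 correlated pairs in place of 14. The set of pairs changed as well. Fcnb with Camp and with Ngp passed the permutation test only with totals. Lcn2 with Ltf and with Camp, and Ltf with the late genes, passed only with TMM. With all libraries, 412 of 432 values of single members kept direction and side of the threshold, and 15 changed sign.

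Signs changed only for estimates near 0, by IMQ in WT for Ngp (−0.04 with totals, −0.01 with 10 counts in every library, −0.01 in 2 groups with the block, −0.06 with limma), Ltf (0.00 without the pair), Mmp9 (0.13 without the pair and the 3) and Retnlg (0.04 without either), and by IMQ in KO for Ltf (0.08 without the 3). For KO against WT under IMQ they changed for Ltf (0.16 with totals, 0.18 with limma, 0.04 without the 3), Ngp (0.14, 0.16, 0.09 without the pair, 0.08 without the 3) and Chil3 (0.06, 0.17, 0.16 without the pair), without treatment for Fcnb (−0.01 with no filter and without the pair), and for the interaction of Ltf (−0.02 with RLE factors, DESeq2 and without the pair) and Lcn2 (0.11 with totals, 0.10 with limma, 0.04 without the pair, 0.01 without the 3).

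With each library left out, ranges that crossed 0 were, for IMQ in WT, −0.23 to 0.01 (Ltf), −0.07 to 0.09 (Ngp), −0.02 to 0.19 (Lcn2), −0.21 to 0.14 (Mmp9) and −0.24 to 0.05 (Retnlg), and for untreated KO against WT, −0.16 to 0.12 (Fcnb) and −0.09 to 0.00 (Mmp9). For KO against WT under IMQ they were −0.19 to 0.07 (Ltf), −0.06 to 0.14 (Camp), −0.10 to 0.09 (Ngp) and −0.25 to 0.11 (Chil3), and for the interaction −0.14 to 0.13 (Ltf), −0.12 to 0.11 (Lcn2) and −0.06 to 0.31 (Chil3).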
